A study of Mus musculus with 12 samples.

Results

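The G1 cyclins and the CDK inhibitors set whether a cell passes from G1 into S phase. The group described here holds 10 genes, chosen by name and found by symbol from the Ensembl identifiers of the count table, out of 55414 identifiers in all. They are the D-type cyclin genes Ccnd1, Ccnd2 and Ccnd3, the E-type cyclin genes Ccne1 and Ccne2, the CIP/KIP inhibitor genes Cdkn1a, Cdkn1b and Cdkn1c, and the INK4 inhibitor genes Cdkn2b and Cdkn2c. The cells were 3T3-L1, a mouse preadipocyte line, given as mesenchymal stem cells in the labels. The series compared cells that overexpressed FHL2, a LIM-domain cofactor of transcription, as FHL2-GFP with cells that carried the control construct CTRL-GFP, before and during early adipogenic differentiation.

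There were 4 groups of 3 libraries: FHL2 at day 2, control at day 2, FHL2 at day 0 and control at day 0. All cells were kept in medium with 10% fetal bovine serum. Day 0 cells were post-confluent and not yet induced, and day 2 cells had received 170 nM insulin, 1 µM dexamethasone and 0.5 mM isobutylmethylxanthine in the same serum. A day 2 group without the inducers is not analysed here, so induction and time in culture cannot be told apart. The promoter of the constructs, and whether each line was a clone or a pool, are not stated in the labels. The labels do not say that the 3 libraries of a group came from separate cultures, so the p-values measure only the spread between these libraries.

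D-type cyclins bind CDK4 and CDK6 and start the phosphorylation of RB, which releases E2F transcription factors. E-type cyclins then activate CDK2 and complete that step at the entry into S phase. INK4 proteins block CDK4 and CDK6, whereas CIP/KIP proteins bind CDK complexes more widely and restrain CDK2 above all. Confluent 3T3-L1 cells are known to leave arrest and divide after induction, before they accumulate fat.

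The libraries held 10047708 to 21872139 counts, and levels are given as counts-per-million values (CPM). At day 2 fewer genes had a count (12689 to 16131) than at day 0 (17977 to 18811), and 3 day 2 libraries stood lowest: control replicate 3 with 12689 genes, FHL2 replicate 1 with 13657 and FHL2 replicate 2 with 14158. Differences between days also followed the GC content of transcripts. From the lowest to the highest of 5 equal classes of GC content, the median log2 fold change of day 2 against day 0 was -1.54, -0.67, 0.029, 0.55 and 0.74 in FHL2 and -1.66, -0.69, 0.045, 0.56 and 0.77 in control. The day changes of the members and of the named pathway genes are therefore given also after an offset that removes each library's trend with GC content. Fhl2 itself averaged 17.1 ± 6.49 CPM in FHL2 and 16.3 ± 4.03 CPM in control at day 2, and 62.7 ± 4.35 CPM in FHL2 and 61.2 ± 2.40 CPM in control at day 0 (SD, n = 3 each). It was not called between the lines (adjusted p = 0.914 at day 2 and 1 at day 0), and whether reads of the construct are counted at Fhl2 is not given, so the lines are named as labelled. All 8 fibroblast and preadipocyte markers had counts, summing to 20985 to 28156 CPM per library, whereas the summed macrophage, endothelial, epithelial and muscle markers reached at most 5.13 CPM for any list. Epcam, Hbb-bs, Myod1, Myog and Ckm had no count in any library. Between the lines, 2 of the 8 fibroblast and preadipocyte markers were called higher in FHL2 (Ly6a and Thy1) and 1 lower (Col1a1) at day 2, and 1 higher (Thy1) at day 0. Thy1 was at 301 ± 9.21 CPM in FHL2 and 228 ± 12.3 CPM in control at day 2, and at 295 ± 8.86 CPM in FHL2 and 199 ± 9.59 CPM in control at day 0 (SD, n = 3 each). The part of these marker differences in the members' differences between lines was not tested.

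Between day 2 and day 0, Ccnd3, Cdkn1a and Cdkn2c were higher in both lines and Ccnd1, Ccnd2, Ccne2 and Cdkn1b were lower in both, on the counts as deposited. Calls are at an adjusted p under 0.05 in edgeR's quasi-likelihood test over the 14435 genes with enough counts. Of the 9 members tested, 4 were called higher and 4 lower at day 2 in FHL2, where 25.8% of all genes tested were called higher and 30.2% lower. In control 3 members were called higher and 4 lower, where 26.3% of all genes tested were called higher and 30.8% lower. In all, 8 of 9 members were called in FHL2 and 7 of 9 in control, against this broad background. The median log2 fold change of the members was 0.28 in FHL2 and -0.0094 in control, against -0.11 and -0.14 over all genes tested. With the GC offset, where 20.1% of all genes tested were called higher and 20% lower in FHL2 and 20.3% higher and 19.8% lower in control, Ccnd3 was the 1 member called higher in each line. Ccnd1, Ccnd2 and Cdkn2b were then called lower in both lines, and Cdkn1a in control. Without the 3 libraries of fewest genes, 5 members were called higher and 4 lower in FHL2, beside 26% higher and 30% lower of all genes tested, and 4 higher and 4 lower in control, beside 29.5% and 34%. The 2 day comparisons use different libraries, but both share their libraries with the comparisons between lines.

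**Figure D1:**
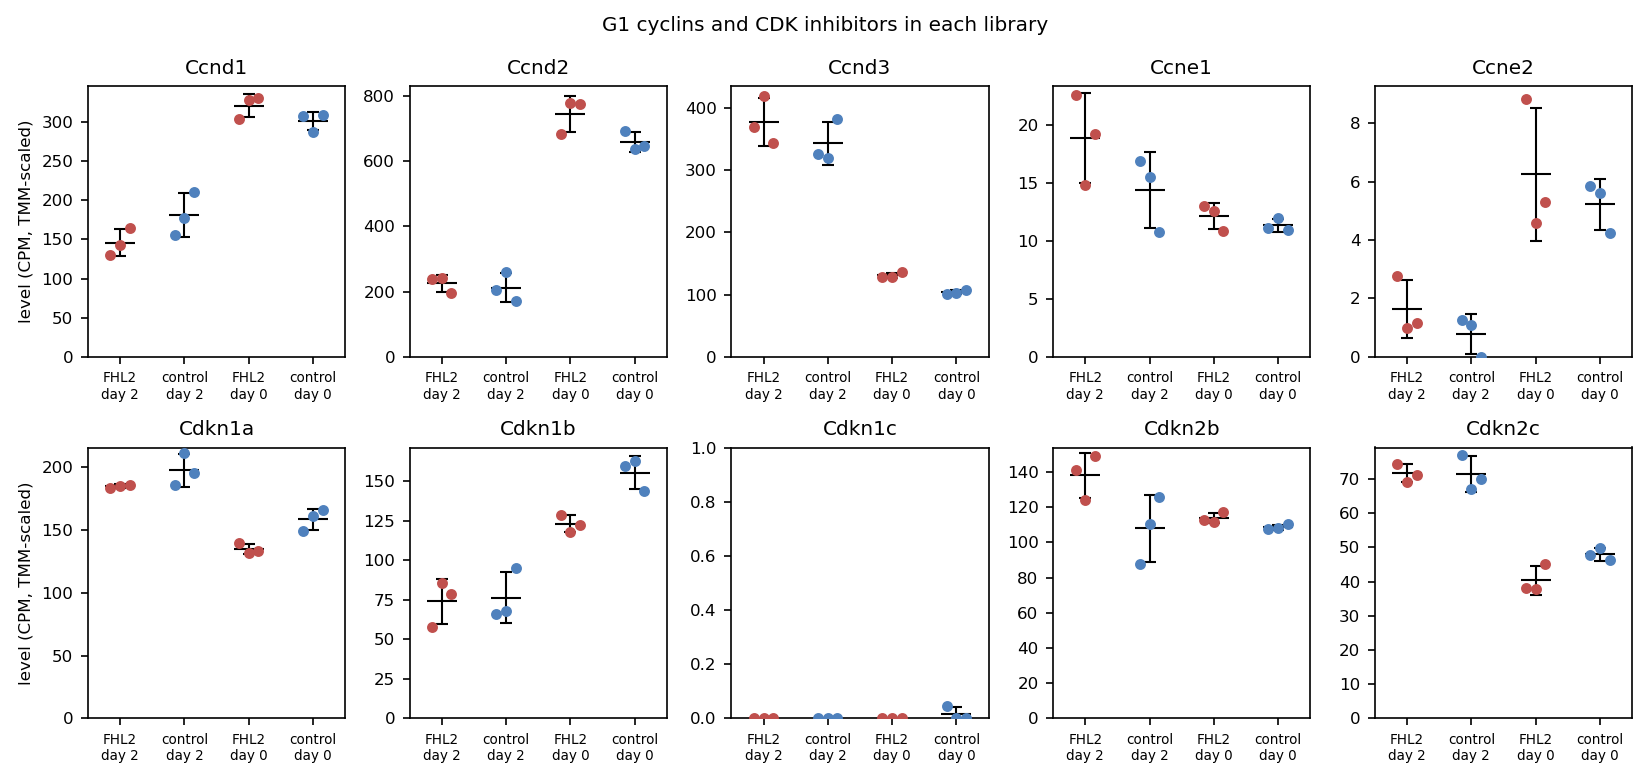
Level of each of the 10 members in every library, in CPM after TMM scaling (vertical axis, from 0), by group along the horizontal axis. Points are libraries, long bars are group means and whiskers are 1 SD (n = 3). Ccnd3 is the member with the widest gap upward at day 2, Ccnd2 the one with the widest gap downward in CPM, and Cdkn1c has 1 count in all.

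Ccnd3, which encodes cyclin D3, had the largest rise among the members. In FHL2 cells it stood at 369.6, 419 and 344 CPM at day 2, against 128, 129 and 136 CPM at day 0. In control cells it stood at 326, 319.5 and 382 CPM at day 2, against 101, 103 and 108 CPM at day 0. The days did not overlap in either line, and every day 2 library was above every day 0 library. The log2 fold change was 1.53 in FHL2 (SE 0.097, adjusted p = 2.38e-08) and 1.72 in control (SE 0.098, adjusted p = 7.61e-09). With the GC offset it was 0.86 in FHL2 (adjusted p = 2.31e-06) and 1.03 in control (adjusted p = 3.82e-07), so the rise was smaller but was called. Without the 3 libraries of fewest genes it was 1.41 in FHL2 and 1.69 in control, and both were called.

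Ccnd2, the cyclin D2 gene, fell in both lines. The FHL2 line had 239, 242 and 195 CPM at day 2, against 682, 777 and 774 CPM at day 0. The control line had 205, 259 and 171 CPM at day 2, against 693, 637 and 647 CPM at day 0. All day 2 values lay below all day 0 values. Its log2 fold change was -1.72 in FHL2 (SE 0.13, adjusted p = 1.24e-07) and -1.64 in control (SE 0.13, adjusted p = 1.76e-07). It was -1.33 and -1.24 with the GC offset, called in both lines.

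Ccnd1 encodes cyclin D1, the D-type cyclin most directly induced by growth factors in fibroblasts. FHL2 cells had 130.4, 143 and 165 CPM at day 2, against 304, 328 and 331 CPM at day 0. Control cells had 155, 178 and 211 CPM at day 2, against 308, 288 and 309 CPM at day 0. The day 2 libraries were lower than the day 0 libraries in both lines, with the wider gap in FHL2. The log2 fold change was -1.14 in FHL2 (SE 0.11, adjusted p = 1.38e-06) and -0.73 in control (SE 0.11, adjusted p = 7.24e-05). It was -1.35 in FHL2 and -0.95 in control with the GC offset, called in both. The difference of the 2 day changes, FHL2 minus control, was -0.40 (SE 0.16) with an unadjusted p of 0.0249 and an adjusted p of 0.644, and it was -0.15 without the 3 libraries of fewest genes.

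The makeup of the D-type cyclin transcripts also differed between days. Shares were taken on CPM per kilobase of all annotated exons, which held 4709 bases for Ccnd1, 9409 for Ccnd2 and 8775 for Ccnd3. Expressed transcripts may be shorter, so the order of genes and the size of a share depend on the length used. Ccnd3 made up 43.8 ± 2.35% of the D-type cyclin sum in FHL2 at day 2 and 39.0 ± 2.80% in control at day 2. At day 0 it made up 9.21 ± 0.410% in FHL2 and 8.12 ± 0.401% in control (SD, n = 3 each). Ccnd2 made up 24.5% in FHL2 and 22.6% in control at day 2, against 48.7% in FHL2 and 48.0% in control at day 0. Ccnd1 made up 31.7% in FHL2 and 38.3% in control at day 2, against 42.1% and 43.9% at day 0. At day 0 the order was Ccnd2, Ccnd1, Ccnd3 in all 6 libraries. At day 2 Ccnd3 was first in all FHL2 libraries, whereas in control the means of Ccnd3 and Ccnd1 differed by less than their spread. The summed D-type level per kilobase was 98.0 ± 5.13 in FHL2 and 100.06 ± 7.46 in control at day 2, against 162 ± 9.16 in FHL2 and 146 ± 5.06 in control at day 0. With the GC offset the Ccnd3 share was 37.8 ± 1.33% in FHL2 and 33.4 ± 1.46% in control at day 2, against 11.7 ± 0.416% and 10.4 ± 0.35% at day 0, a smaller shift in the same direction. The order then differed, with Ccnd1 first at day 0 in both lines (45.6% in FHL2 and 47.8% in control), Ccnd1 above Ccnd3 in control at day 2 (38.6%), and Ccnd2 at 30.2% in FHL2 and 27.9% in control at day 2. The summed level was 89.3 in FHL2 and 91.5 in control at day 2, against 159 and 143 at day 0, with the offset. The offset is fitted to each gene's deviation from its own mean over the libraries, so it does not correct levels between genes. In bulk RNA, fewer cells that express a gene and less RNA per cell cannot be told apart.

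**Figure D2:**
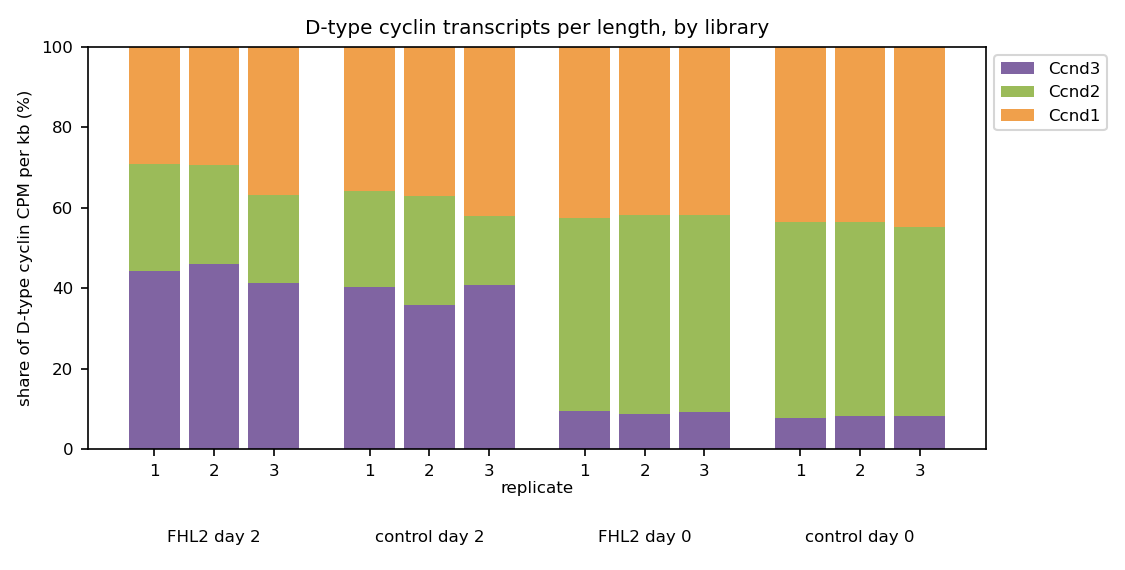
Share of each D-type cyclin gene in their summed CPM per kilobase of exon (vertical axis, percent), from the counts as deposited, 1 stacked bar per library, grouped by line and day along the horizontal axis. Ccnd3 fills 35.8% to 45.9% of the bar in the 6 day 2 libraries and 7.65% to 9.61% in the 6 day 0 libraries.

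The E-type cyclin genes summed to 7.55 ± 1.71 CPM per kilobase in FHL2 and 5.62 ± 1.41 in control at day 2, against 6.34 ± 0.955 and 5.75 ± 0.404 at day 0, well below the D-type sum. Ccne1, which encodes cyclin E1, had 22.5, 14.8 and 19.2 CPM at day 2 in FHL2 cells, against 13.0, 12.6 and 10.8 CPM at day 0. In control cells Ccne1 had 16.9, 15.5 and 10.7 CPM at day 2, against 11.1, 11.98 and 10.9 CPM at day 0. The days did not overlap in FHL2 and overlapped in control through replicate 3, the library of fewest genes. On the log2 scale the change was 0.64 in FHL2 (SE 0.24, adjusted p = 0.0355) and 0.35 in control (SE 0.24, adjusted p = 0.237). Without the 3 libraries of fewest genes Ccne1 was called higher in both lines, at 0.68 in FHL2 (adjusted p = 0.0113) and 0.57 in control (adjusted p = 0.00857). It was called in neither with the GC offset, at 0.21 in FHL2 and -0.087 in control. The call in FHL2 was lost on leaving out any of 8 of the 12 libraries, FHL2 day 2 replicates 1 and 3 and all day 0 libraries, with adjusted p of 0.0538 to 0.128.

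Ccne2, the cyclin E2 gene, was the rarest member that could be tested, with 823 counts over 12 libraries. It had 2.77, 0.992 and 1.15 CPM at day 2 in FHL2 cells, against 8.83, 4.59 and 5.32 CPM at day 0. Control cells had 1.27, 1.10 and 0 CPM at day 2, against 5.83, 5.61 and 4.23 CPM at day 0. It was lower in every day 2 library than in every day 0 library. Its log2 fold change was -1.93 in FHL2 (SE 0.75, adjusted p = 0.0402) and -2.66 in control (SE 0.79, adjusted p = 0.00984). Neither line was called with the GC offset, at 0.042 in FHL2 (adjusted p = 0.969) and -0.49 in control (adjusted p = 0.623). The call in FHL2 was lost on leaving out any of 8 of the 12 libraries, FHL2 day 2 replicates 2 and 3 and all day 0 libraries, with adjusted p of 0.0593 to 0.157. Its transcript has 36.3% GC, in the lowest class. Ccne1 made up 94.1 ± 2.30% of the E-type sum per kilobase in FHL2 and 96.5 ± 3.05% in control at day 2, against 72.3 ± 6.16% in FHL2 and 74.1 ± 2.93% in control at day 0. With the GC offset these shares were 87.9% and 92.4% at day 2, against 86.1% and 88.3% at day 0.

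Among the CIP/KIP genes, Cdkn1a encodes p21, the classic p53-induced inhibitor of CDK2. In FHL2 cells Cdkn1a had 183, 185 and 186 CPM at day 2, against 139, 132 and 133 CPM at day 0. Control libraries had 186, 212 and 195 CPM at day 2, against 149, 161 and 166 CPM at day 0. The rise was small and the days did not overlap in either line. On the log2 scale the change was 0.46 in FHL2 (SE 0.084, adjusted p = 0.000352) and 0.32 in control (SE 0.084, adjusted p = 0.00507). Under the GC offset the sign turned, to -0.11 in FHL2 (adjusted p = 0.29) and -0.26 in control (adjusted p = 0.0194). The direction for Cdkn1a therefore rests on whether the GC trend is removed.

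Cdkn1b encodes p27, an inhibitor that accumulates in arrested cells. FHL2 libraries had 57.9, 85.4 and 78.5 CPM at day 2, against 129, 118 and 123 CPM at day 0. Control libraries had 66.2, 68.0 and 95.0 CPM at day 2, against 159.8, 163 and 143 CPM at day 0. Every day 2 library was below every day 0 library of its line. The log2 fold change was -0.74 in FHL2 (SE 0.15, adjusted p = 0.001) and -1.03 in control (SE 0.16, adjusted p = 5.96e-05). Under the GC offset it was 0.40 in FHL2 (adjusted p = 0.08) and 0.18 in control (adjusted p = 0.427), not called in either. The Cdkn1b transcript has 43.1% GC, also in the lowest class.

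Cdkn1c, which encodes p57, was close to absent from the counts. It had 1 count in all, in control day 0 replicate 1, and was not tested. A count of 0 allows up to 3 counts in a group, which is 0.0666 CPM in FHL2 and 0.0809 CPM in control at day 2, and 0.0460 CPM in FHL2 at day 0. The control day 0 group held 1 count, so the limit for a count of 0 does not apply there. These limits cover counting error only.

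The INK4 gene Cdkn2c encodes p18, an inhibitor of CDK4 and CDK6. In FHL2 cells it had 74.5, 69.2 and 71.3 CPM at day 2, against 38.0, 37.8 and 45.2 CPM at day 0. In control cells it had 77.2, 67.2 and 70.0 CPM at day 2, against 47.9, 49.9 and 46.2 CPM at day 0. The days did not overlap in either line. Its log2 fold change was 0.83 in FHL2 (SE 0.12, adjusted p = 3.38e-05) and 0.57 in control (SE 0.12, adjusted p = 0.000773). Under the GC offset it was called in neither, at 0.13 in FHL2 and -0.16 in control. Its transcript has 58.0% GC, in the highest class.

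Cdkn2b encodes p15, an INK4 protein that TGF-beta signalling is known to induce. In FHL2 cells it had 141, 124 and 149 CPM at day 2, against 113, 112 and 117 CPM at day 0. In control cells it had 87.8, 111 and 126 CPM at day 2, against 107, 108 and 110.2 CPM at day 0. The days did not overlap in FHL2 and overlapped in control. It was called in neither line, with a log2 fold change of 0.28 in FHL2 (SE 0.12, adjusted p = 0.0633) and -0.0094 in control (SE 0.12, adjusted p = 0.954). With the GC offset it was called lower in both, at -0.37 in FHL2 (adjusted p = 0.0254) and -0.67 in control (adjusted p = 0.000506). Its transcript has 55.9% GC, in the highest class, and the part of GC content in the day changes of the members was not tested beyond this offset.

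**Figure D3:**
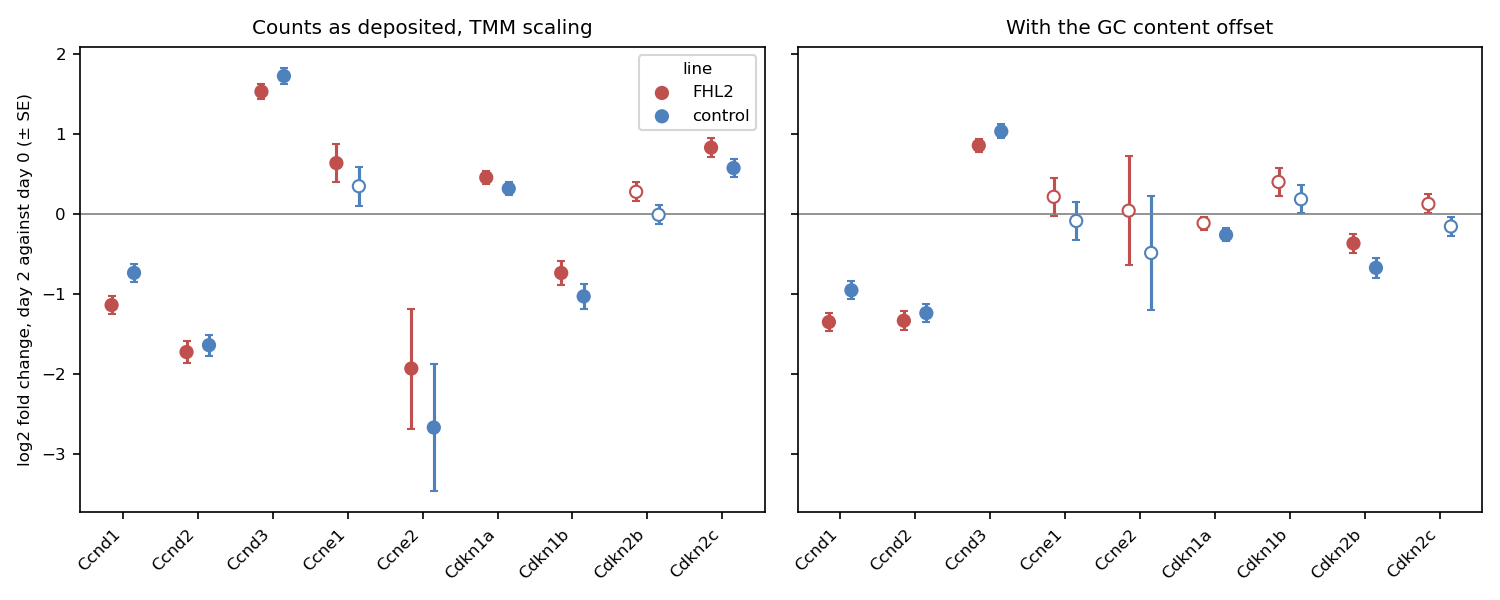
Log2 fold change of day 2 against day 0 for the 9 members tested (vertical axis, ± SE), in FHL2 (red) and control (blue), from the counts as deposited (left) and with the GC content offset (right). Filled points were called at an adjusted p under 0.05, open points were not. Ccnd1, Ccnd2 and Ccnd3 keep their direction and call in both panels, whereas Cdkn1a and Cdkn1b change side of 0 in both lines, Ccne2 and Cdkn2b in FHL2, and Ccne1 and Cdkn2c in control.

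Of the INK4 members Cdkn2b and Cdkn2c, Cdkn2b was the higher per kilobase in every group. It made up 78.8 ± 1.29% of their sum in FHL2 and 74.2 ± 4.74% in control at day 2, against 84.5 ± 1.01% and 81.4 ± 0.725% at day 0. The INK4 shares and sums leave out Cdkn2a and Cdkn2d, which are not members. As deposited, Cdkn2a alone stood above the summed INK4 members in every group. It averaged 231 CPM per kilobase in FHL2 and 249 in control at day 2, against 215 and 232 at day 0. Within the CIP/KIP genes, Cdkn1a made up 76.3 ± 3.47% in FHL2 and 76.9 ± 3.92% in control at day 2, against 58.4 ± 0.457% and 56.7 ± 2.68% at day 0. Under the offset that direction turned, to 64.6 ± 5.90% in FHL2 and 64.7 ± 5.86% in control at day 2, against 72.0 ± 0.954% and 71.2 ± 0.377% at day 0, whereas the Cdkn2b share was 79.0% and 74.6% at day 2, against 84.2% and 81.1% at day 0. The summed level per kilobase of the INK4 members was 126 ± 9.79 in FHL2 and 104 ± 12.3 in control at day 2, against 97.0 ± 3.73 and 96.0 ± 0.823 at day 0. The summed CIP/KIP level per kilobase was 68.3 ± 3.49 in FHL2 and 72.4 ± 4.81 in control at day 2, against 65.0 ± 2.30 and 78.8 ± 2.10 at day 0. Under the GC offset the INK4 sum turned, to 99.6 ± 9.20 in FHL2 and 82.1 ± 9.48 in control at day 2, against 121 ± 4.56 and 121 ± 4.23 at day 0, and the CIP/KIP sum was 65.9 and 70.4 at day 2, against 63.6 and 76.3 at day 0.

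No member was called between the lines at either day. At day 2, where 0.72% of all genes tested were called higher and 1.35% lower in FHL2, 2 members had an unadjusted p under 0.05, as had 18.1% of all genes tested. Cdkn2b averaged 138 ± 12.8 CPM in FHL2 and 108 ± 19.1 CPM in control (SD, n = 3 each). Its log2 difference was 0.36 (SE 0.12), with an adjusted p of 0.139 by edgeR. Ccnd1 averaged 146 ± 17.2 CPM in FHL2 and 181 ± 28.1 CPM in control, a log2 difference of -0.31 (SE 0.11, adjusted p = 0.169 by edgeR). For both genes the libraries of the lines overlapped. Without the 3 libraries of fewest genes, which leaves 1 FHL2 and 2 control libraries at day 2, Cdkn2b was called at 0.56 (adjusted p = 0.0227 by edgeR), beside 3.74% of all genes called higher and 6.32% lower, and Ccnd1 stood at -0.043. The lone FHL2 library is there assumed to vary like the other groups.

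At day 0, where 0.0208% of all genes tested were called higher and 0.0277% lower in FHL2, 3 members had an unadjusted p under 0.05, as had 4.16% of all genes tested. Ccnd3 averaged 131 ± 4.46 CPM in FHL2 and 104 ± 3.49 CPM in control (SD, n = 3 each). The lines did not overlap for Ccnd3, nor for Cdkn1a, Cdkn1b, Cdkn2b and Cdkn2c. For Cdkn2b this was so at a log2 difference of only 0.068 (SE 0.12). The share of all genes without overlap was not counted, so the lack of overlap does not set these members apart. The log2 difference of Ccnd3 was 0.34 (SE 0.096), with an adjusted p of 0.479 by edgeR. Cdkn1a averaged 135 ± 3.95 CPM in FHL2 and 159 ± 8.43 CPM in control, a difference of -0.23 (adjusted p = 0.835). Cdkn1b averaged 123 ± 5.52 CPM in FHL2 and 155 ± 10.5 CPM in control, a difference of -0.34 (adjusted p = 1). In a fit of the day 0 libraries alone, whose spread was smaller, Ccnd3 was called higher at 0.36 (adjusted p = 0.0369 by edgeR), beside 0.897% of all genes called higher and 0.854% lower. The biological coefficient of variation was 0.123 over day 0, 0.463 over day 2 and 0.283 over all libraries.

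The change between days was not called as different between the lines for any member, where 0% of all genes tested were called higher and 0.00693% lower. Among members, the difference of the day changes, FHL2 minus control, ran from -0.40 for Ccnd1 to 0.74 for Ccne2, whose SE was 1.05. For Cdkn2b it was 0.29 (SE 0.17) and for Ccnd3 -0.20 (SE 0.14). A p that misses the threshold does not show that the lines responded alike.

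**Figure D4:**
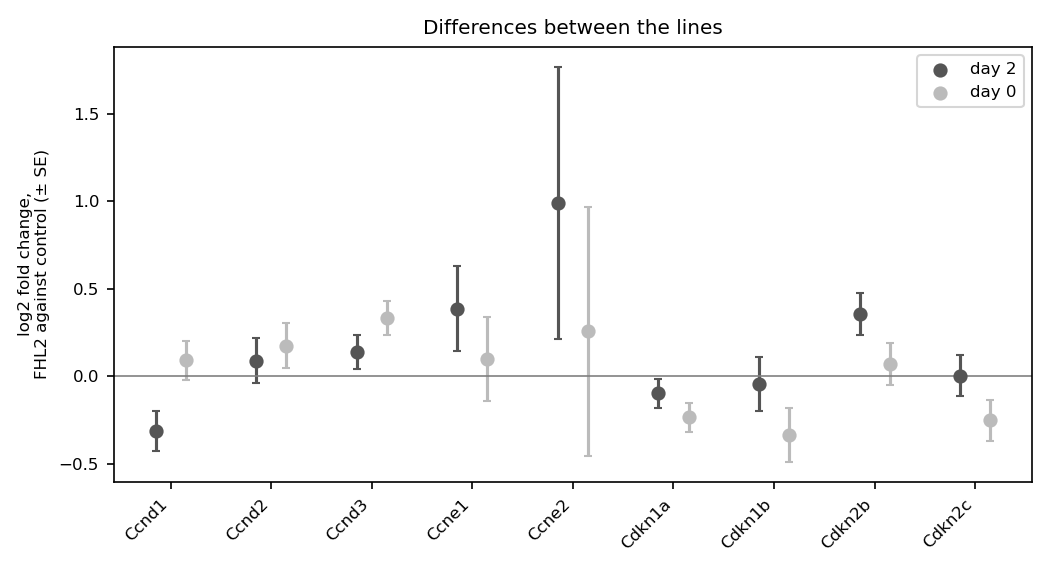
Log2 fold change of FHL2 against control for the 9 members tested (vertical axis, ± SE), at day 2 (dark) and day 0 (light). No point passed an adjusted p under 0.05, and Ccne2, the rarest member, has the widest errors.

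Promoters were found for 6 of the 10 members in the RefSeq promoter table (build GRCm38.p6), each 250 bases before to 50 after a start site. Ccnd1, Ccnd2, Ccne2 and Cdkn1c had no entry. The promoters of Ccnd3, which rose most and has 2 listed starts, and those of 3 inhibitor genes are shown, written 5′ to 3′ on the strand of the gene. Capitals mark, on either strand, the CRE core TGACG, the SP1 motif GGGCGG and the CCAAT box CCAAT in Ccnd3, the p53 decamer (the repeat unit of the p53 response element) in Cdkn1a, CCAAT and GGGCGG in Cdkn1b, and the CRE TGACGTCA, which contains the core, with GGGCGG in Cdkn2b.
Ccnd3 start 1 (chr17:47504801-47505100, plus strand): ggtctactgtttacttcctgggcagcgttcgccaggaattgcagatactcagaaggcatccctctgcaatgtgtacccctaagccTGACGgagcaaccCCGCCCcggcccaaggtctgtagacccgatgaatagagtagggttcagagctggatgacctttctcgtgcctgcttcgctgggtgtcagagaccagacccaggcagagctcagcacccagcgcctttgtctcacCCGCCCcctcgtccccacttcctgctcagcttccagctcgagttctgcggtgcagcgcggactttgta
Ccnd3 start 2 (chr17:47593217-47593516, plus strand): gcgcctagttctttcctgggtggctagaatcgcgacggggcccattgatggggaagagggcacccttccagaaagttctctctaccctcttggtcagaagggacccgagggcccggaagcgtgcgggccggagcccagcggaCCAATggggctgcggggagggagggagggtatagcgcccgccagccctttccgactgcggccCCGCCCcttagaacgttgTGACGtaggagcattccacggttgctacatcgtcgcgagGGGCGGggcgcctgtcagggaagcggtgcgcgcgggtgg
Cdkn1a start 1 (chr17:29090729-29091028, plus strand): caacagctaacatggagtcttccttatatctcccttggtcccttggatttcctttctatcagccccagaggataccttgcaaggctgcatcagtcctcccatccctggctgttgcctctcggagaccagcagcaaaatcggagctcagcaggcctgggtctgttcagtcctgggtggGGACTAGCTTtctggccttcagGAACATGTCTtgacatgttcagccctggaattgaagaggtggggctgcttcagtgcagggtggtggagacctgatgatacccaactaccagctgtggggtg
Cdkn1b (chr6:134920151-134920450, plus strand): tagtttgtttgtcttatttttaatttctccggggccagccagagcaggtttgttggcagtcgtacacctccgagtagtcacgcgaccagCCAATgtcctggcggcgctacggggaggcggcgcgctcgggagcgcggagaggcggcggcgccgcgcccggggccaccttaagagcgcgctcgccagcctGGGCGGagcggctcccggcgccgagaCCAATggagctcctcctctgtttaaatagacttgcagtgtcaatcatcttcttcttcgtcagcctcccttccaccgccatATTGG
Cdkn2b (chr4:89310983-89311282, minus strand): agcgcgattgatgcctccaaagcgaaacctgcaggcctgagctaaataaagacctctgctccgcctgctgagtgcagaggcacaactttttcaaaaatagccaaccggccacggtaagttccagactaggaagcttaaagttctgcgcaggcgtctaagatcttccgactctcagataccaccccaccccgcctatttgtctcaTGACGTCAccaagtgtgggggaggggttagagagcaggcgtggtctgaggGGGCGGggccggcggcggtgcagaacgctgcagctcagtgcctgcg

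Both Ccnd3 promoters held 1 CRE core, at -165 from start 1 and at -28 from start 2, and 2 SP1 motifs each. A CRE core was in 20.8% and an SP1 motif in 35.7% of the 32851 promoters of the same length. The first Cdkn1a promoter held p53 decamers at -73 and -51, a motif in 8.36% of promoters, and the second start held none. The Cdkn1b promoter held CCAAT boxes at -161, -35 and 45, and 37.4% of promoters hold 1 or more. The Cdkn2b promoter held the full CRE at -46, a motif in 1.79% of promoters. No member promoter in the table held the C/EBP motif TTGCGCAA, present in 0.183% of promoters, and a match or its lack describes only the letters of these windows.

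Some exons of the members overlap genes on the other strand in GENCODE M21, an annotation of an earlier build than the one used for counting. Of the exon bases of Ccnd1, 23.4% are shared with LTO1, of Ccne2 17.4% with Ints8, and of Ccnd3 4.11% with Bysl. Cdkn1c shares 30.7% with Gm44732 and Cdkn1a 7.68% with AC167363.2. Ccnd2 shares 3.91% with 9330179D12Rik and 3.95% with Gm43126. The libraries were stranded but the strand setting of the counting is not given, so reads in the shared bases cannot be told apart with certainty. Bysl rose at day 2 in both lines, at 57.4 ± 8.42 CPM in FHL2 and 50.6 ± 1.79 CPM in control, against 27.4 ± 1.56 CPM and 22.4 ± 1.49 CPM at day 0 (SD, n = 3 each). LTO1, at 13.9 to 16.7 CPM on average in the groups, was called in neither line. Ints8 fell at day 2, with a log2 fold change of -2.12 in FHL2 and -1.87 in control (adjusted p = 3.19e-06 and 9.2e-06), in the same direction as Ccne2. Bysl and Ints8 were called also with the GC offset, Bysl at 0.53 and 0.63 and Ints8 at -1.03 and -0.69.

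Of the other genes of the pathway, 7 G1 kinases and their activators were tested at day 2 against day 0. In both lines 1 was called higher and 4 lower. Counts for this and the lists below stand beside 25.8% of all genes tested called higher and 30.2% lower in FHL2. In control these shares were 26.3% and 30.8%. With the GC offset they were 20.1% and 20% in FHL2 and 20.3% and 19.8% in control. The counts were not tested against these shares. Cdk6, a partner of the D-type cyclins, fell by 1.98 on the log2 scale in FHL2 and by 1.66 in control, and fell also with the GC offset (-1.23 and -0.86). Cdk7 and Ccnh, parts of the CDK-activating kinase, had log2 fold changes of -1.60 and -1.22 in FHL2 and -1.68 and -1.33 in control. Neither was called with the GC offset, at -0.62 and 0.50 in FHL2 and -0.65 and 0.60 in control. Then 1 of the 7 was called higher and 1 lower in each line. The gene called higher was Mnat1, at 1.03 in FHL2 and 0.94 in control with the offset. As deposited Mnat1 averaged 20.1 CPM in FHL2 and 17.7 CPM in control at day 2, against 34.1 and 36.0 CPM at day 0. Cdk4 averaged 667 CPM in FHL2 and 644 CPM in control at day 2, against 439 and 438 CPM at day 0. With the offset Cdk4 was not called, at 0.12 and 0.065.

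Of the 13 genes of the RB and E2F families, 2 were called higher and 3 lower in FHL2, and 2 higher and 5 lower in control. Rbl1, which encodes the RB relative p107, had a log2 fold change of -1.41 in FHL2 and -1.61 in control, and Tfdp2, a partner of E2F proteins, one of -1.18 and -1.72. After the GC offset Rbl1 was at -0.11 and -0.24, called in neither line, and Tfdp2 was at -0.50 in FHL2, not called, but still called lower in control (adjusted p = 0.0113). With the GC offset 1 was called higher and 1 lower in FHL2, and 1 higher and 2 lower in control. The gene called higher was Tfdp1, at 0.45 in FHL2 and 0.37 in control with the offset. As deposited Tfdp1 averaged 99.7 CPM in FHL2 and 86.3 CPM in control at day 2, against 98.3 and 91.1 CPM at day 0. E2f1 and E2f4, higher on average at day 2 as deposited, were not called with the offset. They stood at -0.20 and -0.24 in FHL2 and at -0.22 and 0.0095 in control. Of 10 ubiquitin ligase genes that act on G1 cyclins and CDK inhibitors, 7 were called higher and 2 lower in FHL2, and 5 higher and 3 lower in control. Cul1, the scaffold of SCF ligases, had a log2 fold change of -1.64 in FHL2 and -1.59 in control, and Fbxo31 one of 1.19 and 1.35. Cul1 was called also with the GC offset, at -0.70 and -0.59, and Fbxo31 was not, at 0.48 and 0.60. After the offset 2 were called higher and 1 lower in each line.

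Downstream, 15 E2F targets of S phase were tested, of which 10 were called higher and 2 lower in FHL2 and 8 higher and 3 lower in control. Mcm5, a subunit of the replicative helicase, averaged 195 ± 31.1 CPM in FHL2 and 159 ± 1.99 CPM in control at day 2, against 56.6 ± 1.89 CPM and 56.0 ± 2.54 CPM at day 0 (SD, n = 3 each). Tk1, thymidine kinase, rose by 1.53 on the log2 scale in FHL2 and by 1.37 in control. Both were called also with the GC offset, Mcm5 at 1.45 and 1.16 and Tk1 at 1.19 and 1.03. After the offset 11 targets were called higher and 0 lower in each line, beside the 20.1% and 20.3% of all genes called higher in that fit. Of the 5 S phase and mitotic cyclin and CDK1 genes, 4 were called higher and 1 lower in FHL2, and 1 higher and 0 lower in control. The difference of the day changes was called for 0 of the 5, and without the 3 libraries of fewest genes 3 were called higher and 1 lower in control. Ccnf, which encodes cyclin F, had a log2 fold change of 1.19 in FHL2 and 0.86 in control, and 0.69 (called) and 0.36 (not called) with the GC offset. The offset left 4 of the 5 called higher and 0 lower in FHL2, and 1 higher and 0 lower in control.

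Of 14 genes of p53 and its targets, 5 were called higher and 7 lower in FHL2, and 3 higher and 6 lower in control, beside the rise of Cdkn1a in both lines on the counts as deposited. Ccng1, which encodes cyclin G1, had a log2 fold change of -2.51 in FHL2 and -2.98 in control, and Mdm2, the ligase that limits p53, one of -1.40 and -1.42. Both were called also with the GC offset, Ccng1 at -1.05 and -1.37 and Mdm2 at -0.84 and -0.83. After the offset 3 were called higher and 8 lower in FHL2, and 2 higher and 8 lower in control. Of the 2 INK4 genes outside the members, Cdkn2d was called higher in FHL2 (1.28, adjusted p = 0.00223) and not in control (0.71, adjusted p = 0.0563), and Cdkn2a was called in neither line. Under the GC offset Cdkn2d lost its call in FHL2 (0.64, adjusted p = 0.0975), and Cdkn2a was called lower in both lines (-0.63 in FHL2, adjusted p = 0.000757, and -0.68 in control, adjusted p = 0.000392). Of 12 upstream transcription factors, 5 were called higher and 2 lower in FHL2, and 7 higher and 3 lower in control. After the offset 3 were called higher and 5 lower in FHL2, and 3 higher and 4 lower in control.

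Between the lines at day 2, the upstream transcription factors were the one list of the 8 pathway lists with a call, 0 higher and 2 lower of 12. Fosl1, an AP-1 subunit, averaged 66.1 ± 10.9 CPM in FHL2 and 239.9 ± 51.8 CPM in control (SD, n = 3 each), a log2 fold change of -1.86. Jun, its partner, averaged 94.0 ± 4.58 CPM in FHL2 and 148 ± 40.1 CPM in control, a log2 fold change of -0.65. Both were called (adjusted p = 0.000198 and 0.042 by edgeR), and the counts for this list were the same with the GC offset, where 0.963% of all genes were called higher and 1.77% lower. Without the 3 libraries of fewest genes, 1 S phase and mitotic cyclin gene and 1 E2F target were called higher and 1 p53 target lower besides. At day 0 the 8 pathway lists held 0 genes called in either direction.

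**Figure D5:**
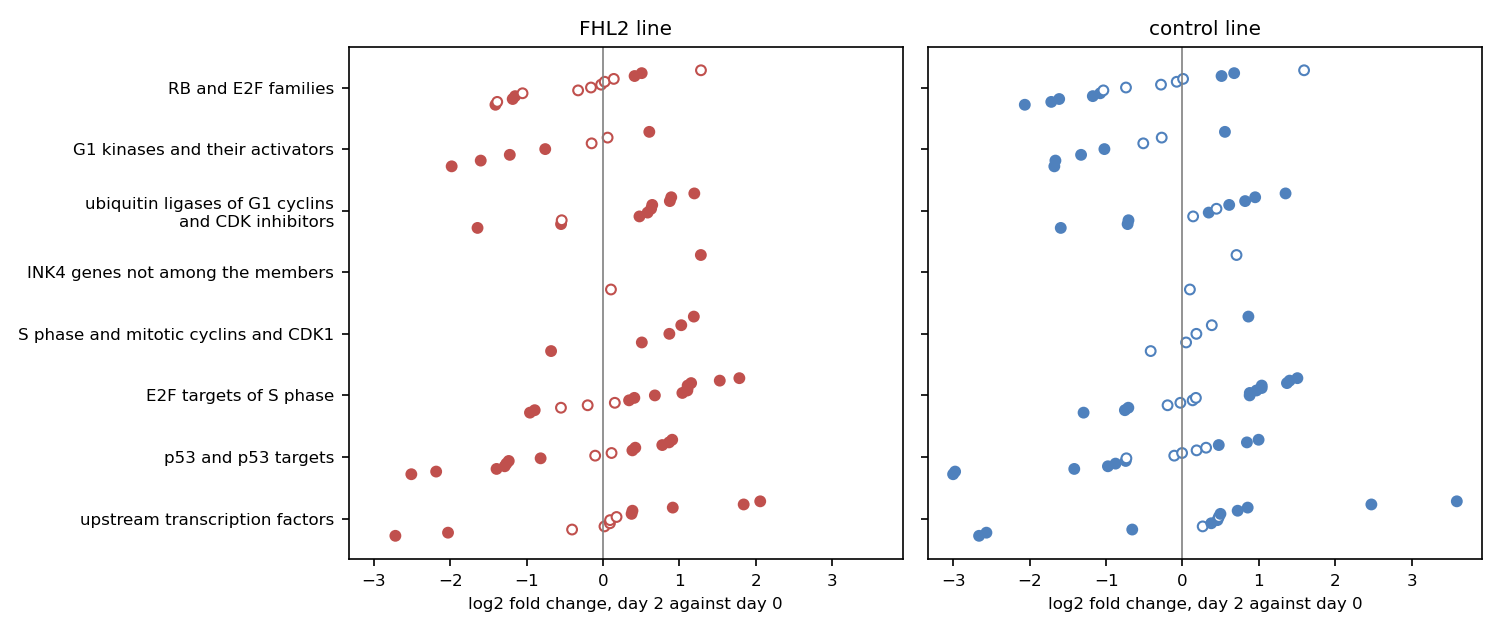
Log2 fold change of day 2 against day 0 (horizontal axis), from the counts as deposited, for each tested gene of 8 lists of pathway genes (down the page), in FHL2 (left, red) and control (right, blue). Filled points were called at an adjusted p under 0.05, open points were not. Most E2F targets lie above 0 and most genes of the kinase list below it, in both lines. With the GC offset, which is not drawn, Cdk4, Ccnh, Mnat1 and Cdc25a of the kinase list stood above 0 in both lines. Cdk6 and Cdk7 stood below 0 in both, and Cdk2 was above 0 in FHL2 only.

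The genes whose levels followed each member most closely over the 12 libraries were taken among 9757 other genes of at least 5 CPM, by Pearson's r of log2 CPM, as a description. For Ccnd3 they were Plod3 and Mdh2 (r of 0.993 each), for Ccnd2 Washc5 and Zfyve9 (0.993 each), and for Ccnd1 Lhx6 (0.991) and Ptk2 (0.985). For Ccne1 they were Dph2 (0.981) and Cdk20 (0.944), and for Ccne2 Frk (0.983) and Dcun1d5 (0.978). For Cdkn1a they were Ly6e and Vipas39 (0.969 each), and for Cdkn1b Bbip1 (0.976) and Eif2a (0.973). For Cdkn2b they were Rgs10 (0.922) and Haus7 (0.917), and for Cdkn2c Gli3 (0.981) and Sf3b2 (0.975). The libraries share day, depth and the GC trend, which all enter these values.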

How the data were processed

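Polyadenylated RNA was sequenced in 12 stranded libraries. The values are raw counts per Ensembl identifier, deposited by the authors in 1 table. Per the submitters' processing notes, the tools were HISAT2 2.2.1, FastQC 0.11.9, HTSeq 0.11.0, limma, Trimmomatic 0.39 and R 4.1.0, and the build was GRCm39 (mm39). The annotation and the strand setting were not stated. Groups came from the labels. The test was edgeR 4.0.16 under R 4.3.3 (filterByExpr, TMM, quasi-likelihood, 1 mean per group, all 12 libraries) for 5 comparisons, and p-values are 2-sided and adjusted by Benjamini-Hochberg over the 14435 genes tested. The fit was run on simulated counts with 200 genes changed in FHL2 at day 2, for the comparison of the lines at day 2 only. The simulated counts held no change between days and no GC trend. The day comparisons and the removal of a GC trend were therefore not tested in this way. Levels are TMM-scaled CPM, and per kilobase of exons in GENCODE M21 (GRCm38), which also gave GC content. Symbols were found for 52081 of 55414 identifiers. Alternatives were RLE scaling, no filter on low counts, DESeq2 1.42.0, limma-voom 3.58.1 and only the groups compared. Further alternatives were a replicate block, a GC offset, both together and libraries left out. A GC and length offset was chosen after seeing the data. Named pathway genes were up to 3 called genes per list and comparison with the largest change and at least 5 CPM, and not every gene taken is printed. Genes that overlap members were added for that reason, and Cdkn2a beside Cdkn2d. Mnat1, Cdk4, Tfdp1, E2f1 and E2f4 were added for how their calls stood with the GC offset. Members and lists were chosen with earlier results of these data known.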

Additional observations from a re-analysis of the deposited data

How the results depend on the processing

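Over 22 alternatives, 981 values of member log2 fold changes were computed. Of these, 896 kept direction and side of the threshold, 28 lost a call, 14 gained one, 20 turned direction where a call was made in either fit and 23 turned with no call in either. Ccnd1, Ccnd2 and Ccnd3 kept their day calls under all alternatives run.

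All turns of a call came with a GC offset. With the GC content offset, 1 member was called higher at day 2 in FHL2 and 1 in control, against 4 and 3. Of all genes tested, 20.1% were then called higher and 20% lower in FHL2, and 20.3% and 19.8% in control. Ccnd1, Ccnd2 and Cdkn2b were called lower in both lines, and Cdkn1a in control. Turns of a call were at 0.042 for Ccne2, -0.11 for Cdkn1a, 0.40 for Cdkn1b and -0.37 for Cdkn2b in FHL2. In control they were at -0.26 for Cdkn1a, 0.18 for Cdkn1b and -0.16 for Cdkn2c. With the GC content and length offset, 1 was called higher in each line. Of the 14435 genes tested, 2789 were called higher and 2866 lower in FHL2, and 2813 and 2825 in control. Again Ccnd1, Ccnd2 and Cdkn2b were called lower in both lines, and Cdkn1a in control. Turns of a call were at -0.18 for Cdkn1a, 0.41 for Cdkn1b, -0.69 for Cdkn2b and -0.019 for Cdkn2c in FHL2. In control they were at -0.31 for Cdkn1a, 0.19 for Cdkn1b and -0.27 for Cdkn2c. The offset removes any change that follows GC content, of whatever source, and the cause was not tested.

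With the replicate block, 4 members were called higher and 4 lower in FHL2 between days, and 3 higher and 4 lower in control. Of the 14435 genes tested, 3564 were then called higher and 4289 lower in FHL2, and 3633 and 4381 in control. No member call changed. With the replicate block and the GC offset, 1 was called higher in each line. Among the 14435 genes tested, 2783 were called higher and 2810 lower in FHL2, and 2768 and 2740 in control. Here too Ccnd1, Ccnd2 and Cdkn2b were called lower in both lines, and Cdkn1a in control. Turns of a call were at -0.11 for Cdkn1a, 0.38 for Cdkn1b and -0.37 for Cdkn2b in FHL2. In control they were at -0.26 for Cdkn1a, 0.17 for Cdkn1b and -0.16 for Cdkn2c. Same-numbered libraries correlated at -0.15 to 0.28, not above 0.1 for every number in any comparison, so the numbers were not taken as pairs, and a shared batch was not tested.

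In the fit of only the groups compared, 1 member (Ccnd3) was called higher in FHL2 at day 0, against 0. Cdkn2b in FHL2 also gained a day call in that kind of fit (0.32, adjusted p = 0.0262 by edgeR). There 3765 of 13708 genes tested were called higher and 3933 lower. Without the 3 day 2 libraries of fewest genes, 1 (Cdkn2b) was called higher in FHL2 at day 2, against 0. Between days, 5 were then called higher and 4 lower in FHL2, beside 26% and 30% of all genes tested, and 4 higher and 4 lower in control, beside 29.5% and 34%. Leaving out 1 library at a time ended the FHL2 day calls of Ccne1 and of Ccne2 for 8 of 12 libraries each (adjusted p of 0.0538 to 0.157 by edgeR), and Ccne1 gained one in control without control day 2 replicate 3 (0.58, adjusted p = 0.0394). Cdkn2b in FHL2 gained one without FHL2 day 2 replicate 2 or any control day 2 library (adjusted p of 0.0211 to 0.0498), and with limma-voom (0.0343). With no filter on low counts, Ccne1 in FHL2 (adjusted p = 0.132) and Cdkn1a in control (0.0507) were no longer called. Ccne2, with 823 counts, and Cdkn1c, with 1, had the fewest counts of the members.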
